A study of Homo sapiens with 6 samples.

Results

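ZIC2 binding was examined around the starts of 10 genes of the pluripotency network, POU5F1, NANOG, SOX2, SALL4, PRDM14, KLF4, ZSCAN10, DPPA4, TDGF1 and ZFP42, in H1 human embryonic stem cells that carried or lacked ZNF263, a zinc-finger protein. The members were the ZIC2 regions with an edge within 100 kb of a start of these genes, given on hg19 to the nearest 1 kb. There were 39 such regions out of 16077 in all. H1 (WA01) is an established human embryonic stem cell line, and both genotypes were of this line. The study had 6 CUT&Tag libraries, an assay in which an antibody guides a transposase to the DNA beside the bound protein. They were 4 libraries made with an antibody against ZIC2, of which 2 came from wild-type cells (WT) and 2 from cells carrying a Cas9-made ZNF263 deletion that the labels call a homogeneous knockout (KO), and 1 library made with normal rabbit IgG for each genotype. No treatment or time point was named, and the labels do not say whether the KO cells came from 1 clone. The deposited data were 1 list of ZIC2 regions per genotype, with 12966 WT and 7231 KO regions and no height, score or read count. Depth is therefore unknown, no value has a replicate error, and where a list lacks a region this says only that none was called, not that binding fell. All 4120 regions found in both lists have the same start and end in each, as regions picked for each list from a joint set would have. How regions were assigned to each list is not known, so "not called" in a genotype may mean "not selected" from such a set, and this bears on every WT-only and KO-only count below. The lists hold no expression, so the identity of the cells and the deletion of ZNF263 could not be checked in them.

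Pluripotent cells can form all tissues of the embryo, and a small set of transcription factors holds them in that state. POU5F1 (OCT4), SOX2 and NANOG bind together at many enhancers, including those of their own genes. SALL4, PRDM14, KLF4 and ZSCAN10 are zinc-finger proteins that work with or regulate this core. DPPA4, TDGF1 and ZFP42 (REX1) are widely used as markers of undifferentiated cells. Human embryonic stem cells are in the primed state, which resembles the epiblast shortly before gastrulation, and KLF4 and ZFP42 are more typical of the earlier, naive state. ZIC2 belongs to the ZIC family of zinc-finger factors, present in primed pluripotent and early neural cells.

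Of the 6 genes with a ZIC2 region within 1 kb of the start, 4 had a promoter sequence in the RefSeq table used here (GRCh38.p14). The 250 bases before each start are shown, 5′ to 3′ on the strand of the gene, as the promoters of the genes with such a region, and for TDGF1 both listed starts are given. The distance of a region from a start was measured on hg19, so whether a region covers the printed bases was not determined. Capitals mark TTTGCAT or its reverse complement ATGCAAA, the core of the octamer that POU5F1 binds, and GGGAGGA or its reverse complement TCCTCCC, a G-rich core of the ZNF263 motif.
NANOG: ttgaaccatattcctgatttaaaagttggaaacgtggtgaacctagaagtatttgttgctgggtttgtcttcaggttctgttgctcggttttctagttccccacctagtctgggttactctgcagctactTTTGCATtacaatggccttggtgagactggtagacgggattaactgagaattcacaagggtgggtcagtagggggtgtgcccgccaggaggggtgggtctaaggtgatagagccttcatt
SOX2: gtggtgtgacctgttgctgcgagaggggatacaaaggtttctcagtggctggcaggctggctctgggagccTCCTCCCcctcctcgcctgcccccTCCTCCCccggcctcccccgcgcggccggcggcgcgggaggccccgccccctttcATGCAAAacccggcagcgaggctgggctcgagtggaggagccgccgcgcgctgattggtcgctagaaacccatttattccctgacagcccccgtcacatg
ZSCAN10: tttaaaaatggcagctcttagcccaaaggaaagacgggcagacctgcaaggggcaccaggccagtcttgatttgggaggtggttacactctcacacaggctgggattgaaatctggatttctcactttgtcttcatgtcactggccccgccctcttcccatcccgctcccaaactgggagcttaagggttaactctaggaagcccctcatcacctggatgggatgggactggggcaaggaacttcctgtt
TDGF1 start 1: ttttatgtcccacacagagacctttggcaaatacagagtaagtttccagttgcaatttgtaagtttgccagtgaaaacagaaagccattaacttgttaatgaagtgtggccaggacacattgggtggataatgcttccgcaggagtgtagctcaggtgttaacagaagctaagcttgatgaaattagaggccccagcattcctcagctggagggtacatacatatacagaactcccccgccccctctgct
TDGF1 start 2: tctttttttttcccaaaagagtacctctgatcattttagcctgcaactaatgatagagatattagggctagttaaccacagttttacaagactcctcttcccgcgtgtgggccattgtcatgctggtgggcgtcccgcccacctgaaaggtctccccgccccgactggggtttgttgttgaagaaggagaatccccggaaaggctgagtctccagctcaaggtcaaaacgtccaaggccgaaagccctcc
The NANOG promoter held 1 octamer core, 120 to 114 bases before the start. The SOX2 promoter held 1 octamer core, 100 to 94 bases before the start, and 2 matches to GGGAGGA, at 179 to 173 and at 155 to 149 bases before the start. The ZSCAN10 promoter and both TDGF1 promoters held no match to either. CCTGCTG, a core of the ZIC family motif, was in none of these 5 sequences on either strand. Over the 35116 promoters of the table, the same 250 bases held TTTGCAT on either strand in 3.94%, GGGAGGA in 16.0% and CCTGCTG in 8.48% of cases. The octamer core was added after the sequences were read, so its matches set against 3.94% test nothing. All these matches describe the letters of these windows only.

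Within 100 kb of the 10 starts, WT cells had 32 ZIC2 regions (95% Poisson interval 21.9 to 45.2) and KO cells 19 (11.4 to 29.7). This makes 59.4 KO regions per 100 WT regions, near the 55.8 over all regions of the lists. Without ZSCAN10, which had 9 WT and 9 KO regions, there were 43.5 KO regions per 100 WT regions. Regions called in both genotypes numbered 12 of the 39, or 30.8%, against 25.6% of all regions. The other regions were 20 WT-only and 7 KO-only. Of the 32 WT regions, 62.5% were not called in KO (exact 95% binomial interval 43.7 to 78.9), against 68.2% of all WT regions in the series. Of the 19 KO regions, 36.8% were not called in WT (16.3 to 61.6), against 43.0% of all KO regions. Both intervals include the share over all regions, so as a set these loci lay near the background. Counting error alone enters these intervals, with each region taken as independent of its neighbours. With 1 list per genotype no test between genotypes was possible.

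**Figure D1:**
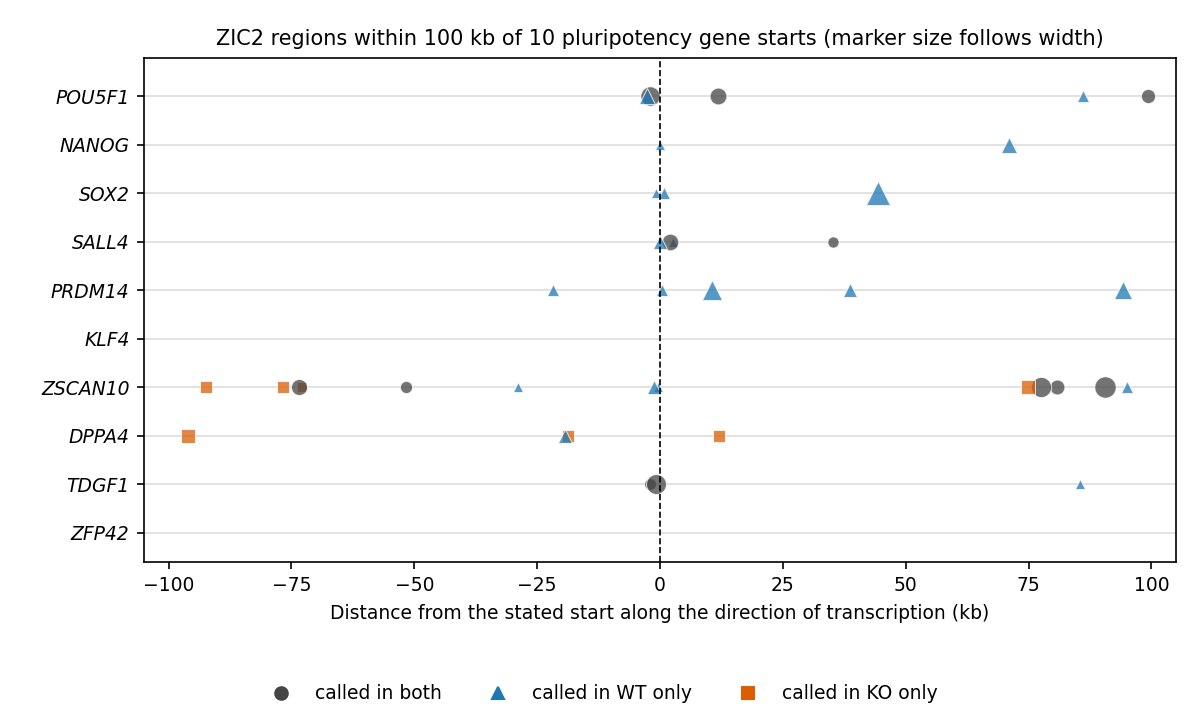
Each row is a gene and each marker a ZIC2 region, placed by the distance of its midpoint from the stated start in kb, negative upstream, with marker size following width and shape and colour giving the class. The 7 KO-only regions are all near DPPA4 (3) or ZSCAN10 (4), and the rows of KLF4 and ZFP42 are empty.

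The genes differed in make-up. NANOG, SOX2 and PRDM14 had WT regions only (2, 3 and 5), with 0 KO regions. Of all 200 kb windows of the genome with 1 or more WT regions, 44.7% held no KO region. POU5F1, SALL4 and TDGF1 each had 2 or 3 regions called in both genotypes, beside 2, 2 and 1 that were WT-only, and none that was KO-only. DPPA4 had 3 KO-only regions and 1 WT-only region. ZSCAN10 had 13 regions, of which 5 were called in both, 4 were WT-only and 4 KO-only. KLF4 and ZFP42 had none. Distances below run along the direction of transcription from the stated start to the nearest edge of a region, and each is uncertain by 0.5 kb because the starts are rounded, so that no side is given for a region closer than this. Other genes lie in most of these windows, and distance does not assign a region to a gene.

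POU5F1 encodes the POU-domain factor OCT4, and its expression in embryonic cells is driven by a proximal and a distal enhancer upstream of the start. It had 5 regions on chromosome 6 in WT and 3 in KO. The nearest lay upstream, at chr6:31139609-31140406, from 1.61 to 2.41 kb before the start, was 798 bp wide and was called in both genotypes. A WT-only region of 527 bp, chr6:31140407-31140933, touched its far edge with no base between. The stretch of ZIC2 regions upstream of POU5F1 thus ran to 2.93 kb in the WT list and to 2.41 kb in the KO list. With edges within 1 kb counted as shared, the region of 527 bp became shared, so its class depends on the overlap rule. Downstream of the start lay a region of 609 bp called in both, at 11.5 kb, a WT-only region of 219 bp at 85.9 kb and a region of 420 bp called in both, at 99.1 kb. Neighbouring genes in the RefSeq table were TCF19 on the side of the lower coordinates and the long noncoding RNA PSORS1C3 on the other.

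NANOG encodes a homeodomain factor of the core. It had 2 regions on chromosome 12, both WT-only. A region of 150 bp, the minimum width of the lists, covered the stated start (chr12:7941869-7942018). A region of 559 bp lay 70.7 kb downstream (chr12:8012659-8013217). The nearest region called in both genotypes was 293 kb from the start, and the nearest KO-only region 181 kb. Among all WT regions of 150 bp, 99.6% were not called in KO, and of those from 401 to 600 bp, 44.4%. Nearly all WT regions as narrow as that at the NANOG start were thus absent from the KO list.

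SOX2 encodes an HMG-box factor that pairs with OCT4 on DNA. Its 3 regions on chromosome 3 were all WT-only. A pair of narrow regions flanked the start, of 178 bp at 0.634 kb upstream (chr3:181429189-181429366) and of 214 bp at 0.724 kb downstream (chr3:181430724-181430937). The third lay 43.9 kb downstream (chr3:181473915-181474990). At 1076 bp it was the widest of the 39 regions and wider than 99.1% of all regions of the series. Only 31 of the 205 WT regions wider than 1000 bp (15.1%) were not called in KO, and this was among them. The region called in both genotypes that lay nearest to SOX2 was 1404 kb away. The noncoding RNA SOX2-OT overlaps SOX2 and lies around it.

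SALL4, a zinc-finger factor that binds beside OCT4 and NANOG, had 4 WT and 2 KO regions on chromosome 20. A WT-only region of 431 bp covered the stated start (chr20:50418826-50419256). Downstream followed a region of 597 bp called in both, at 1.72 kb (chr20:50416684-50417280), and 278 bp beyond it a WT-only region of 150 bp, at 2.60 kb. That WT-only region became shared when edges within 1 kb counted as shared. A region of 210 bp called in both lay 35.1 kb downstream. At the start of SALL4 the KO list therefore held no region, while the nearest KO region was under 2 kb away.

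PRDM14, a PR-domain zinc-finger protein that represses differentiation genes, had the most WT-only regions of the 10 genes. All 5 of its regions on chromosome 8 were WT-only, so that the KO list held 0 of 5. The exact 95% interval of the share not called in KO is 47.8 to 100%, which includes the 68.2% of all WT regions. It takes the 5 regions as independent of each other. A region of 226 bp lay 0.194 kb from the start (chr8:70983581-70983806). Downstream lay regions of 821 bp at 10.2 kb, 446 bp at 38.5 kb and 647 bp at 93.9 kb, and upstream 1 of 289 bp at 21.7 kb. The region of 821 bp was wider than 96.1% of all regions. Of all WT regions from 801 to 1000 bp, 19.2% were not called in KO. The nearest region called in both genotypes was 1635 kb from the start.

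KLF4, a Krüppel-like zinc-finger factor of the naive network, had no region within 100 kb in either list. The same held for 53.4% of all 200 kb windows of the genome. The nearest was a WT-only region of 314 bp, 206 kb away, followed by a KO-only region of 150 bp at 285 kb and a region called in both at 611 kb. At this depth, which is unknown, binding below the calling threshold cannot be told from none.

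ZSCAN10 (ZNF206), a SCAN-domain zinc-finger protein of embryonic stem cells, had 9 WT and 9 KO regions on chromosome 16. Both regions close to the start were WT-only, of 171 bp at 0.257 kb (chr16:3149257-3149427) and of 418 bp at 0.977 kb upstream (chr16:3149977-3150394). The 5 regions called in both were all over 50 kb away, at 51.5 and 73.1 kb upstream and at 77.1, 80.5 and 90.1 kb downstream, with widths from 278 to 940 bp. The 4 KO-only regions were 150 to 433 bp wide and lay at 72.7, 76.5 and 92.4 kb upstream and at 74.6 kb downstream. The remaining WT-only regions were of 150 bp at 28.9 kb upstream and of 208 bp at 94.9 kb downstream. The lists thus had equal totals here, with WT-only regions at the start and all 3 classes beyond 50 kb. Of the 9 WT regions, 44.4% were not called in KO (exact 95% interval 13.7 to 78.8), against 68.2% of all WT regions. The share of the 9 KO regions not called in WT was also 44.4% (13.7 to 78.8), against 43.0% of all KO regions. Over all WT regions in the width classes of those at the start, 87.2% and 44.4% were not called in KO. Genes for other zinc-finger proteins, such as ZNF205 and ZNF213, stand near ZSCAN10.

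DPPA4 is a chromatin-associated protein of pluripotent cells whose neighbour DPPA2 acts with it. It was the only gene of the 10 with more KO than WT regions, 3 against 1. All 3 KO regions were KO-only, as were 43.0% of all KO regions in the series. The KO-only regions on chromosome 3 were of 246 bp at 11.8 kb downstream (chr3:109043929-109044174), of 246 bp at 18.6 kb upstream (chr3:109074621-109074866) and of 405 bp at 95.8 kb upstream (chr3:109151776-109152180). The single WT-only region, of 462 bp (chr3:109075021-109075482), was 154 bp from the second of these. Regions of opposite class thus stood next to each other, and the nearest region called in both was 852 kb from the start. When edges within 1 kb counted as shared, this pair became shared.

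TDGF1 encodes CRIPTO, a membrane-anchored co-receptor for NODAL. It had 3 regions on chromosome 3 in WT and 2 in KO, and its regions near the start were called in both genotypes. They were of 837 bp at 0.443 kb, reaching to 1.28 kb upstream (chr3:46616721-46617557) and of 249 bp at 1.90 kb upstream (chr3:46615853-46616101), 619 bp apart. The RefSeq table lists 2 starts for this gene, 3253 bp apart on GRCh38, and which of them the stated start stands for was not determined. A WT-only region of 159 bp lay 85.3 kb downstream. ZFP42, a marker of undifferentiated cells, had no region within 100 kb, as was the case for 53.4% of 200 kb windows of the genome. Its nearest was a WT-only region of 150 bp at 172 kb, with the nearest region called in both at 1307 kb.

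**Figure D2:**
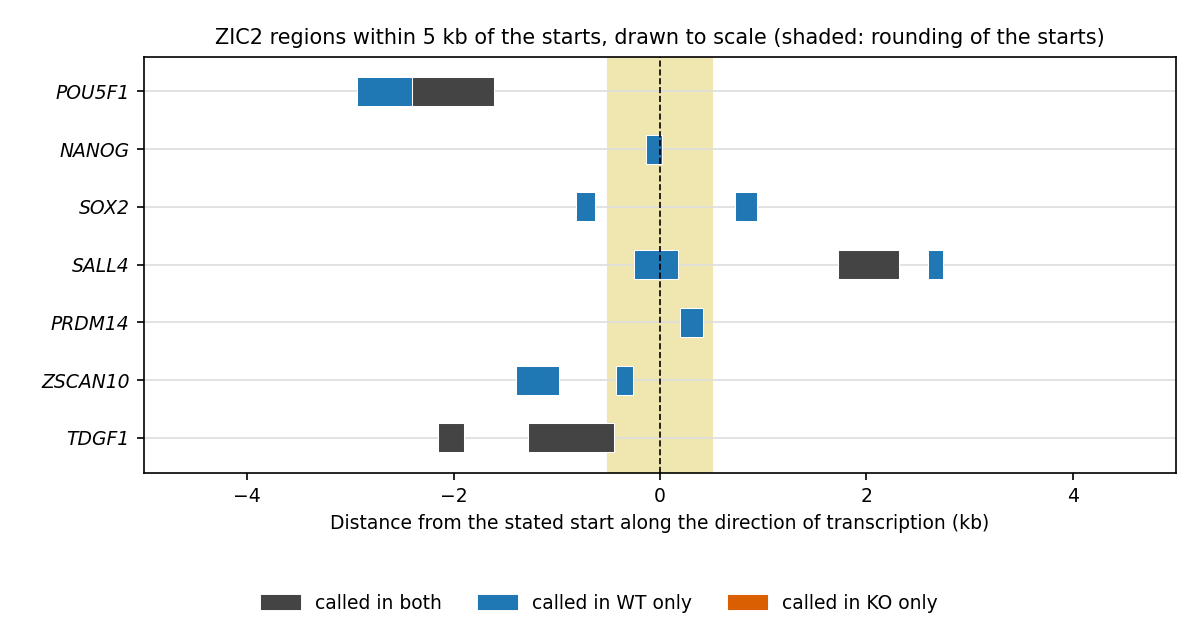
Bars are ZIC2 regions within 5 kb of the stated start, drawn to scale in kb along the direction of transcription, with colour giving the class and shading the 0.5 kb rounding of the starts. Of 13 regions, 9 are WT-only and 4 are called in both, at POU5F1, SALL4 and TDGF1 (2).

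Regions at the starts were mostly WT-only. The limits of 1 and 5 kb used here were chosen after the data were seen. Within 1 kb lay 8 regions at 6 genes, of which 7 were WT-only, at NANOG, SOX2 (2), SALL4, PRDM14 and ZSCAN10 (2), and 1 was called in both, at TDGF1. None was KO-only. The share called in WT but not in KO was 87.5% (exact 95% interval 47.3 to 99.7), an interval that includes the 68.2% of all WT regions. With the starts moved by 0.5 kb to the left or the right, 5 or 6 regions were WT-only, 1 was called in both and 0 were KO-only, and the same number of genes, 5, had a WT-only region. These regions were narrow as well, with a median of 214 bp for the WT-only ones. If each had the share of all WT regions of its width class, 5.22 of the 8 would not be called in KO. From 1 to 5 kb there were 3 regions called in both and 2 WT-only, and from 5 to 100 kb 8, 11 and 7 KO-only. Of the WT regions in these zones, 40.0% (exact 95% interval 5.27 to 85.3) and 57.9% (33.5 to 79.7) were not called in KO. Both intervals include the 68.2% of all WT regions. All 7 KO-only regions, near DPPA4 or ZSCAN10, were over 5 kb from a start. Only 4 KO regions lay within 5 kb, of which 0% were KO-only (exact 95% interval 0 to 60.2), against 43.0% of all KO regions. Their width classes give 0.844 KO-only regions. The same shares at the starts of all genes were not analysed here.

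By role, the 3 core factors had 7 WT-only regions and 3 called in both (all 3 at POU5F1) and no KO-only region. The 4 partners and regulators had 11, 7 and 4, and the 3 markers had 2, 2 and 3. The share called in WT but not in KO was 70.0% for the core factors (34.8 to 93.3), 61.1% for the partners (35.7 to 82.7) and 50.0% for the markers (6.76 to 93.2). Each of these intervals includes the 68.2% of all WT regions. Given their width classes, the shares over all WT regions would average 53.4%, 55.0% and 55.2%, and 4 to 18 WT regions stand behind each observed share.

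**Figure D3:**
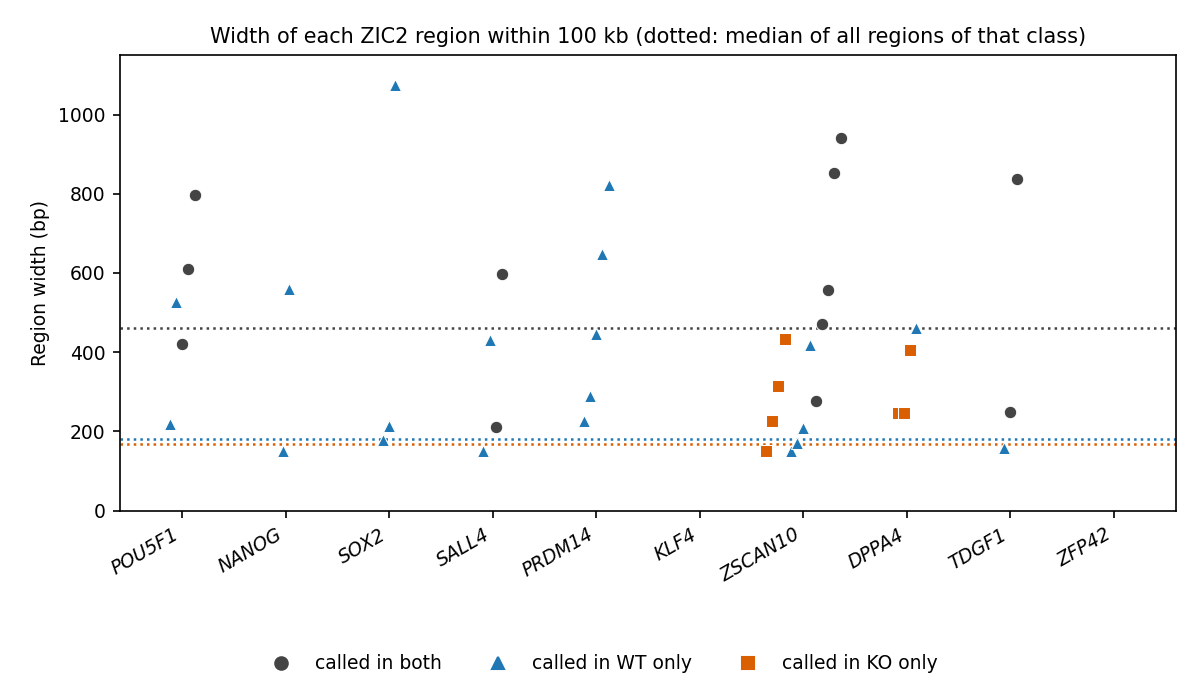
Each marker is the width in bp of 1 region within 100 kb of the gene named below it, by class, and dotted lines give the median of all regions of that class in the series. The 5 widest regions are the WT-only region of SOX2 (1076 bp), 2 regions called in both at ZSCAN10 (940 and 853 bp), 1 called in both at TDGF1 (837 bp) and the WT-only region of PRDM14 (821 bp).

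In each class the median width at these loci was above that of the series. It was 577 bp where both genotypes had a call, 258 bp among WT-only and 246 bp among KO-only regions, against 460, 181 and 167 bp over all regions. For a region called in both, width is 1 value, since its edges are the same in both lists. Of the 39 regions, 4 had the minimum width of 150 bp, a smaller share than the 4877 of all 16077. Wide regions called in WT alone were few but present. Of the 8 WT regions over 600 bp, 3 were not called in KO, 1 at SOX2 and 2 at PRDM14, where 25.4% of all WT regions over 600 bp were not called in KO. Given the width class of each region, the shares over all WT regions add up to 17.4 of the 32, and 20 were observed. For KO regions they add up to 5.49 of the 19, and 7 were observed. As shares these sums are 54.5% and 28.9%, which lie within the intervals of the observed 62.5% and 36.8%.

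**Figure D4:**
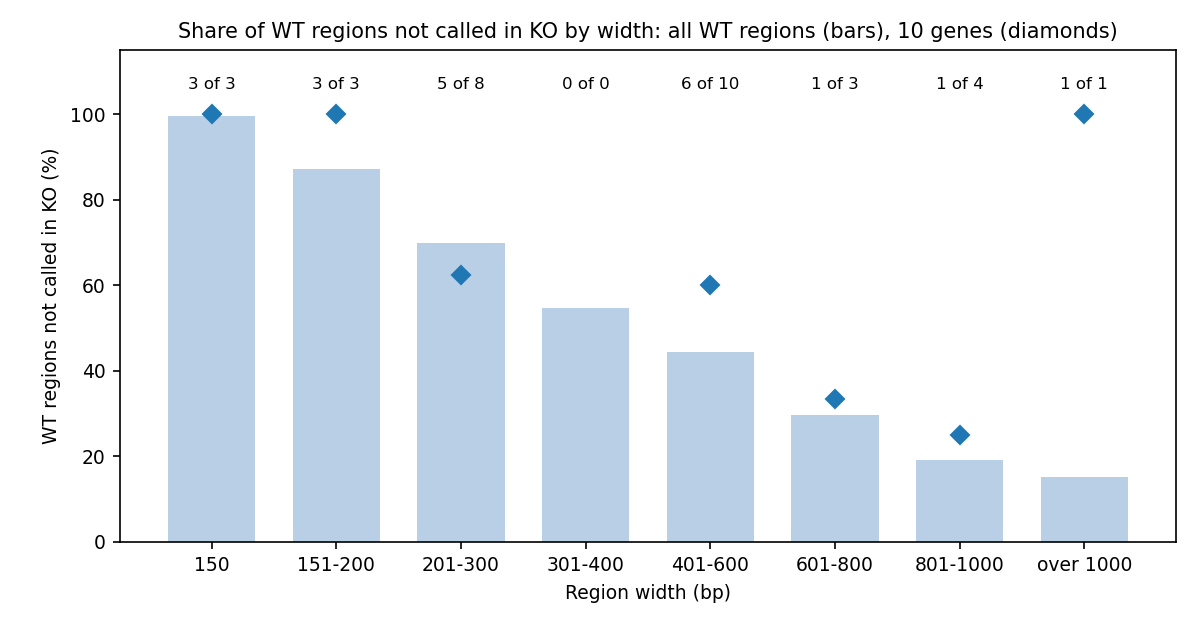
Bars give the percent of all WT regions of each width class (bp) that were not called in KO, and diamonds the same percent for WT regions within 100 kb of the 10 starts, with their counts above. The bars fall from 99.6% at 150 bp to 15.1% above 1000 bp, and the diamonds at 150 to 200 bp and above 1000 bp stand at 100%, on 3, 3 and 1 regions.

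Most of these genes stood in stretches with more ZIC2 regions than a typical part of the genome. Over 15162 windows of 200 kb on chromosomes 1 to 22 and X, 46.6% held a region of either list, and 4.55% held 5 or more. Of the 10 genes, 8 had a region, and 3 had 5 or more, POU5F1 and PRDM14 with 5 and ZSCAN10 with 13. Only 16 windows (0.106%) held 13 or more. The windows of the genome include stretches without genes, so this is a description and not a comparison with other genes. Windows with a WT region held no KO region in 44.7% of cases. Among windows with exactly 3 WT regions, as near SOX2, 170 of 814 (20.9%) held no KO region, and among those with exactly 5, as near PRDM14, 14 of 193 (7.25%). Windows with at least 3 KO-only regions, as near DPPA4 and ZSCAN10, numbered 94 (0.620%), of which 25 held no region called in both. These classes of windows were chosen after the values of the genes were seen.

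**Figure D5:**
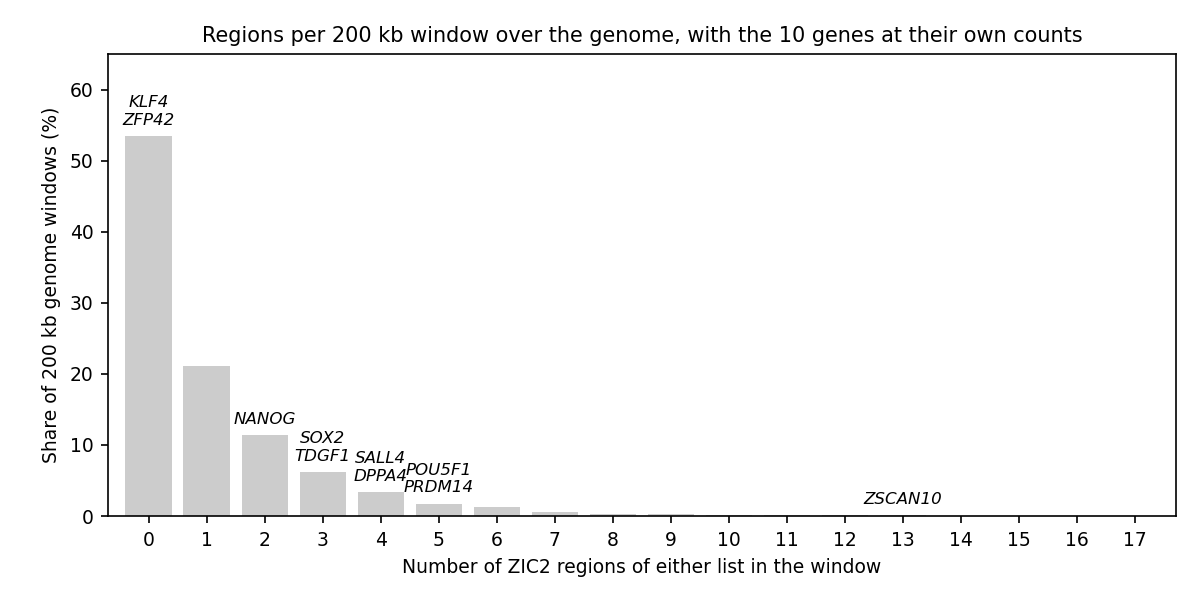
Bars give the percent of 200 kb windows of the genome that hold each number of ZIC2 regions of either list, and gene names stand at the number found within 100 kb of their own start. KLF4 and ZFP42 stand at 0 with 53.4% of all windows, and ZSCAN10 stands at 13.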

How the data were processed

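ZIC2 CUT&Tag was available as 1 deposited list of peaks per genotype, each with 3 columns (chromosome, start, end). Values per library were not part of these lists. The submitters' processing notes name Bowtie2, Picard and hg19. Not given in the sources used here are the peak caller, its threshold, the use of the IgG libraries and how the authors pooled the replicates. IgG libraries were not analysed here.

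The 10 genes, lists, roles and windows were chosen with earlier results of these data known. All regions within 100 kb of a start are named. Starts are those of the rule, on hg19, rounded to 1 kb, and distances run to the nearest edge. Strands come from the RefSeq promoter table (GRCh38.p14) for 7 genes and from general knowledge for POU5F1, SALL4 and PRDM14. TDGF1 is listed there as CRIPTO. No genome or annotation of hg19 was used, so sequences of regions and other genes of the network were not analysed here. The octamer core was added after the promoter sequences were read.

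Regions overlapping by at least 1 bp were counted as called in both. Shares have exact Clopper-Pearson and counts exact Poisson 95% intervals. Counting used Python 3.11.15, pandas 2.3.3, numpy 2.4.6 and scipy 1.17.1, and was tested on simulated lists. Coordinates are hg19, counted from 1. Other windows, overlap rules, width limits and gene sets were tried.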

Additional observations from a re-analysis of the deposited data

How the results depend on the processing

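Smaller windows held fewer regions by construction. The number of WT regions was 21 within 50 kb, 17 within 25 kb, 13 within 5 kb and 8 within 1 kb, and that of KO regions was 8, 7, 4 and 1. The last 2 windows were chosen after seeing the data. WT regions of at least 276 bp, the median width over the lists, numbered 20. Leaving out ZSCAN10 gave 10 KO regions. Leaving out each gene in turn, the WT-only percent of WT regions was 55.6 to 69.6, lowest without PRDM14 and highest without ZSCAN10, and the KO-only percent of KO regions was 25.0 to 43.8, lowest without DPPA4. The WT-only percent was 87.5 within 1 kb, and the KO-only percent was 0 within 5 kb and 0 within 1 kb, on 4 and 1 KO regions. With edges within 1 kb counted as shared these percents were 53.1 and 26.3. Requiring 50% reciprocal overlap could move nothing, as edges of shared regions are identical, and so tests nothing. The other settings run left all values within their intervals or within 1.5 times. No paired analysis was possible because each list merges its genotype's replicates, and no replicate could be left out. The lists hold no read counts, so how close an uncalled region came to the threshold is unknown.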

Other observations

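Between 100 and 200 kb from the 10 starts lay 18 further regions, 11 WT-only, 4 called in both and 3 KO-only. Of the 15 WT regions among them, 73.3% were not called in KO (exact 95% interval 44.9 to 92.2), near the 68.2% of all WT regions and the 68.1% that their width classes give. The nearest regions outside the 100 kb limit were WT-only, of 150 bp at 101.6 kb from NANOG and of 382 bp at 102 kb from DPPA4, and the farthest inside it was the region called in both at 99.1 kb from POU5F1. NANOG had 4 more WT-only regions in this belt, of which 2 (318 and 159 bp) stood 337 bp apart about 151 kb upstream, and 1 KO-only region at 181 kb. PRDM14 had its nearest KO region there, a KO-only region of 242 bp at 145 kb upstream. The 4 regions called in both were all near ZSCAN10, with widths from 335 to 984 bp.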
